A study of Homo sapiens with 2 samples.

Results

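The 4 genes of the ID family (inhibitors of DNA binding: ID1, ID2, ID3 and ID4) and the 3 E-protein genes whose products they bind (TCF3, TCF4 and TCF12) were examined in H1299, an established line of human lung carcinoma of the non-small cell type. They are 7 of 18132 genes represented on the arrays and were read by 38 probe sets, 12 for the ID genes and 26 for the E-protein genes. All probe sets annotated to these symbols were taken. The genes were chosen by family, with the log2 differences of ID2 and ID3 in this same comparison already known, so their differences are given as descriptions and none is tested. One group of cells carried the empty pcDNA3.1 plasmid, and the other a pcDNA3.1 plasmid with the transcription factor EGR1. Both were transfected transiently with Lipofectamine and collected after 48 hours. The study looked for genes that EGR1 regulates in lung cancer, with cell death and metastasis as its interest. Each group had 1 Affymetrix array, so no value below has a replicate error, and every difference describes these 2 arrays only. The share of cells that took up a plasmid is not given in the sources used here.

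ID proteins are short nuclear proteins with a helix-loop-helix domain but without the basic region that contacts DNA. They pair with the broadly expressed E proteins and hold them off E-box sites, which E proteins otherwise bind as homodimers or together with tissue-restricted class II partners such as MYOD1. ID genes are immediate targets of BMP signalling through SMAD1, SMAD5 and SMAD9, respond to serum, and are associated with proliferating, undifferentiated cells and with many carcinomas. TCF4 here is the E protein and not the Wnt-pathway factor TCF7L2, which once carried the same name.

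The bases before the ID gene starts are shown because the ID genes are the members that differed, and because the transfected factor binds GC-rich DNA. The windows are RefSeq sequences of the GRCh38.p14 build, 250 bases ending at the base before the annotated start, 5′ to 3′ on the gene's strand. Capitals mark matches to the EGR consensus GCGNGGGCG, the CCAAT box (CCAAT) and the TATA box (TATAAA). A match on the opposite strand appears as its reverse complement, so an EGR match can begin with CGCCC and a CCAAT match reads ATTGG.
ID1 promoter, chr20:31605039-31605288, plus strand: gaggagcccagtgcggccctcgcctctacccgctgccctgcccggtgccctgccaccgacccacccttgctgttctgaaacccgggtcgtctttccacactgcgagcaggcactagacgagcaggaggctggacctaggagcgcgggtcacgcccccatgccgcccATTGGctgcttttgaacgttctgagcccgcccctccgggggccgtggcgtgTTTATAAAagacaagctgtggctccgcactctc
ID2 promoter, chr2:8681806-8682055, plus strand: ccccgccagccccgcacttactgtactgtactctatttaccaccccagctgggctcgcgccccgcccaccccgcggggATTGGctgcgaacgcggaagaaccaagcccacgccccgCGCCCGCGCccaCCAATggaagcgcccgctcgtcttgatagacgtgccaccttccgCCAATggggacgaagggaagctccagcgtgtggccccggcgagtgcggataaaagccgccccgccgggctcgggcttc
ID3 promoter, chr1:23559502-23559751, minus strand: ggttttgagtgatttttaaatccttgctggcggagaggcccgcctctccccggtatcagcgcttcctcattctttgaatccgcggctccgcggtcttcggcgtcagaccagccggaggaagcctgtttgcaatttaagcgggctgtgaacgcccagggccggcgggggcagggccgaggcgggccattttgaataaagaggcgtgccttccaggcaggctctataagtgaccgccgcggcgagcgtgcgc
ID4 promoter, chr6:19837120-19837369, plus strand: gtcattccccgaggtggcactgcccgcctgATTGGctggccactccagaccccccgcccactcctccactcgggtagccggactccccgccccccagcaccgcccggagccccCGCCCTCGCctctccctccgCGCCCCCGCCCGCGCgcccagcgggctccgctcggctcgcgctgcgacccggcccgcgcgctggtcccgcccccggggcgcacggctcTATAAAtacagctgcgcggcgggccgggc

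The ID windows were searched on both strands for 7 motifs, and differed in what they held. The ID2 window held 1 EGR match, GCGCGGGCG on the opposite strand from -134 to -126 relative to the start, and the ID4 window held 3. Those of ID4 were GCGAGGGCG from -137 to -129, GCGGGGGCG from -117 to -109 and GCGCGGGCG from -111 to -103, the last 2 overlapping. The ID1 and ID3 windows held none. Of all 35116 RefSeq windows of this length, 8.41% held an EGR match, and of the 11387 with at least 65% G and C, 22.0% did. The G and C content was 66% for ID1, 69.2% for ID2, 62% for ID3 and 78.8% for ID4, against a median of 58% over all windows. The ID3 window is thus outside the GC-rich class. No share was computed for windows as GC-rich as that of ID4. Among the E-protein genes the TCF3 window held 1 EGR match, at -15 to -7, and none of the 10 TCF4 and 5 TCF12 windows held one. These are letter matches and not evidence that EGR1 is bound there.

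CCAAT boxes were present 3 times before ID2 and 1 time each before ID1 and ID4, and 32.0% of all windows held at least 1. ID1 and ID4 had a TATA box close to the start, at -31 to -26 and -29 to -24, with a further overlapping match on the opposite strand in ID1. These letters were anywhere in the window in 10.7% of all windows, and in 1.94% of those with at least 65% G and C. Only exact letters were counted. Variants that differ by 1 letter, such as tataag before ID3 and gataaa before ID2, were not. The GC box GGGCGG, which overlaps the EGR consensus, occurred 6 times before ID4, 2 times before ID2 and 2 times before ID1. The window of TCF3, which read alike in both arrays, had 79.6% G and C and held 8, more than any ID window. Of all windows 42.6% held a GC box, and of those with at least 65% G and C 84.4% did. The E-box CANNTG, the element that E proteins bind, occurred 1 time before ID2 and 1 time before ID4 (CAGCTG in both), and in 61.8% of all windows. The letters GGCGCC, a GC-rich SMAD element, were in none of the 4 windows, and in 16.4% of all windows or 37.0% of the GC-rich ones. Bases farther upstream were not searched, so SMAD elements there would not be seen. The ID3 window held 1 match in all, the letters TGACG, part of the cyclic AMP response element, on the opposite strand at -150 to -146. Those letters were in 21.2% of all windows.

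**Figure D1:**
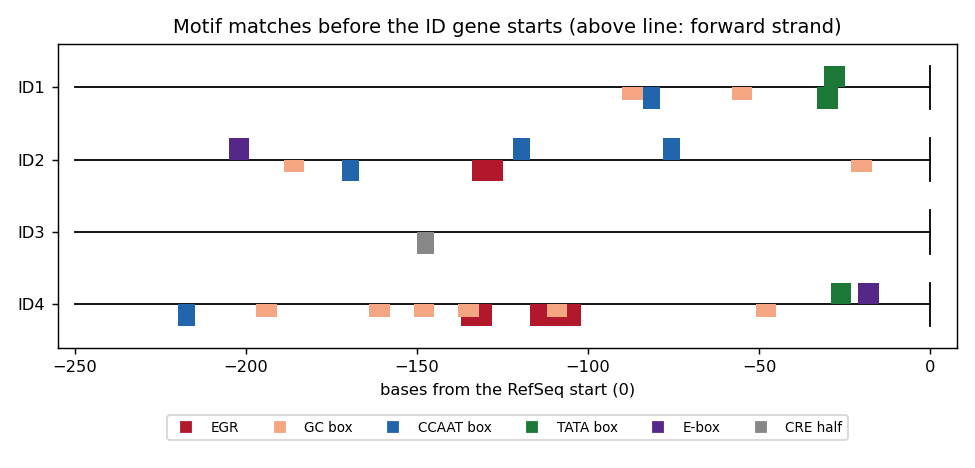
Motif matches in the 250 bases before the RefSeq start of the 4 ID genes; the x axis gives bases from the start, boxes above a line are forward-strand matches and boxes below it opposite-strand matches. ID2 and ID4 carry EGR matches between -137 and -103, and ID1 and ID4 carry an exact TATAAA match shortly before the start. GC boxes (short boxes) partly overlap the EGR matches of ID4.

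All 4 ID genes read higher in the array of EGR1-transfected cells, and all 12 of their probe sets lay above 0. By the brightest probe set, ID2 was 3.08-fold, ID4 2.61-fold, ID3 1.46-fold and ID1 1.33-fold higher. The E-protein genes differed by at most 1.08-fold by the same measure. A difference here is the EGR1 level minus the empty-vector level in log2 units, and the brightest probe set is the one with the highest mean of both. Of all 49293 non-control probe sets 45.8% lay above 0 and 48.9% below, and of all 18132 genes 47.6% lay above and 47.9% below. All probe sets of a gene lay above 0 in each of the 4 ID genes, and in 18.7% of the 11734 genes with 2 or more probe sets.

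At the 2-fold threshold, 4 of 12 ID probe sets were higher, against a background of 0.229% of all probe sets, and none was lower (background 0.0487%). At 1.5-fold the count was 6 of 12, against 0.844%. None of the 26 E-protein probe sets reached 1.5-fold in either direction, and 0.686% of all probe sets did so downwards. By gene, ID2 and ID4 were past 2-fold, against 0.348% of the 12652 genes whose mean level exceeded a floor of 5.22 in log2 units, the 40th percentile over probe sets. At 1.5-fold higher the background was 0.941%, and for genes lower it was 0.0079% at 2-fold and 0.229% at 1.5-fold. Because the genes were chosen with this contrast in view, these shares place the members and support nothing further. All 7 genes were past the floor by their brightest probe set, and 28 of the 38 probe sets were.

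**Figure D2:**
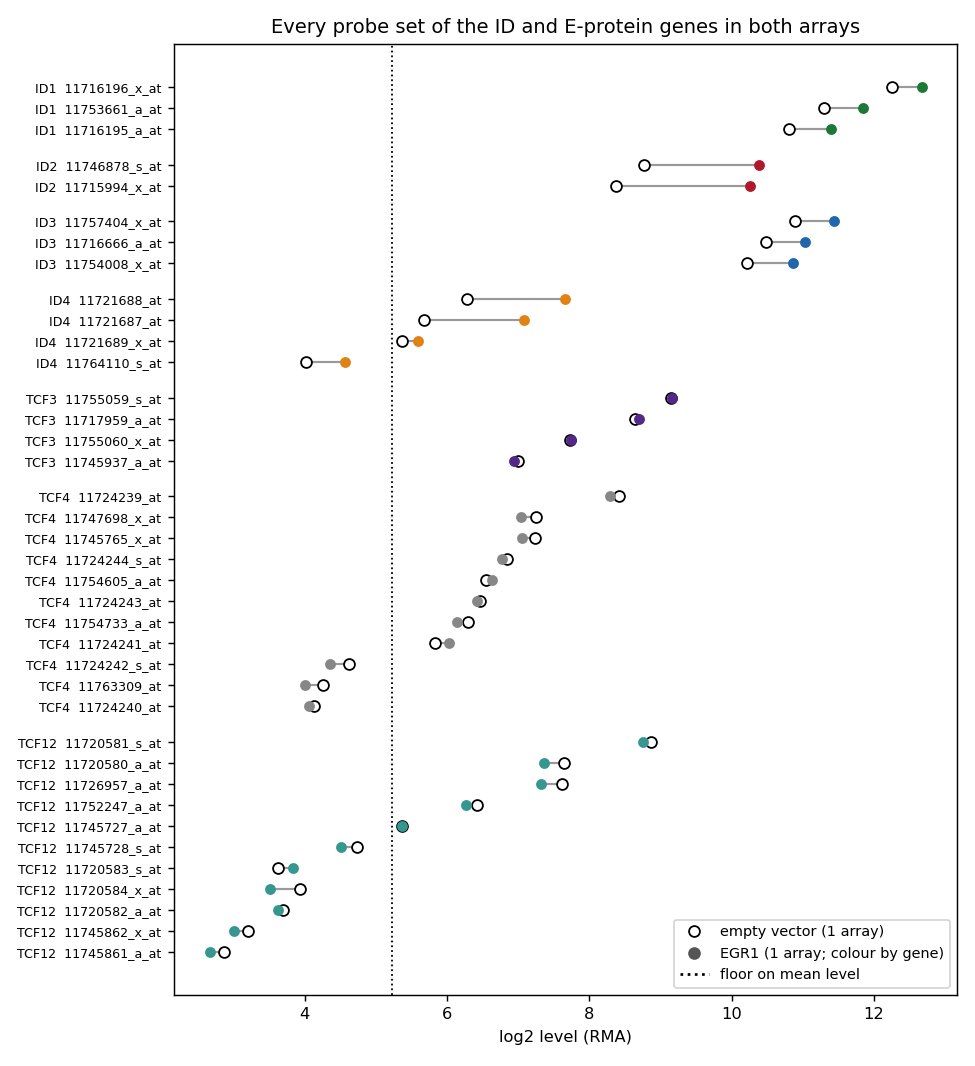
Log2 level (x axis, RMA values) of each of the 38 probe sets of the ID and E-protein genes in the empty-vector array (open circles) and the EGR1 array (filled circles, coloured by gene), 1 array each; the dotted line is the floor of 5.22 on the mean level. All 12 ID pairs point to the right, by 0.22 to 1.88, whereas 19 of the 26 E-protein pairs point to the left, none by more than 0.42.

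ID2, which can also bind the retinoblastoma protein, had the largest difference of the members. Probe set 11746878_s_at read 8.76 with the empty vector and 10.39 with EGR1, a log2 difference of 1.62. The other, 11715994_x_at, read 8.38 and 10.26, a difference of 1.88 or 3.68-fold. Both were far above the floor in both arrays, and the spread between them (SD 0.18 over 2 probe sets) was close to 0.15, the pooled SD among a gene's probe sets over 7113 genes. That spread is between different probe sets of a gene, whatever its origin, and does not cover the error between cultures or arrays. Both ID2 probe sets carry suffixes that mark possible binding to similar transcripts. The probe set of the ID2 pseudogene ID2B was dim, at 2.56 and 2.64. ID2 ranked 15th of 12652 genes by its difference, and 2nd among the 1921 genes at or above its level.

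ID4, which is expressed in neural and some epithelial tissues and acts on other ID proteins as well as on E proteins, was the dimmest ID gene, and its probe sets fell into 2 kinds. The brighter pair agreed closely. Probe set 11721688_at read 6.28 with the empty vector and 7.66 with EGR1, and 11721687_at read 5.68 and 7.08, differences of 1.39 and 1.40. The other 2 differed less. Probe set 11721689_x_at read 5.37 and 5.59, a difference of 0.22, and 11764110_s_at, under the floor in both arrays, read 4.02 and 4.56, a difference of 0.55. The SD over all 4 was 0.60, several times the pooled SD, and the mean over them was 0.89, under the 2-fold threshold. Which part of the transcript each probe set reads was not established. By its brightest probe set ID4 ranked 23rd of the genes past the floor.

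ID1 and ID3, the members best known as direct BMP targets and for roles in endothelium, showed smaller differences at much higher levels. For ID1, 11716196_x_at read 12.26 and 12.67 (difference 0.41), 11753661_a_at read 11.30 and 11.85 (0.55), and 11716195_a_at read 10.81 and 11.39 (0.59). For ID3, 11757404_x_at read 10.89 and 11.43 (0.55), 11716666_a_at read 10.48 and 11.03 (0.55), and 11754008_x_at read 10.21 and 10.86 (0.65). All 6 probe sets were higher in the EGR1 array, with an SD between probe sets of 0.09 for ID1 and 0.06 for ID3, both under the pooled SD. Within ID1, ID2 and ID3 the brighter a probe set was, the smaller was its difference.

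The level matters for how the ID1 difference stands among other genes, since differences between these arrays were narrower at high levels. The interquartile range of the difference was 0.24 in the lowest decile by level of the genes past the floor and 0.12 in the highest decile. The brightest ID1 probe set was brighter than 99.3% of all probe sets. ID1 ranked only 299th of all genes past the floor by its difference. Among the 155 genes at or above its level, however, it ranked 1st, and the differences of the others ran from -0.25 to 0.22. ID3 ranked 146th of all genes past the floor and 7th among the 517 at or above its level. The order ID2, ID4, ID3, ID1 by difference rests on single arrays. The gap between ID3 and ID1 by their brightest probe sets (0.55 against 0.41) was smaller than the pooled SD between probe sets. The gap between ID2 and ID4 (1.62 against 1.39) was larger than it, but smaller than the SD of 0.60 among the ID4 probe sets. These spreads cover probe sets within a gene and do not settle the order of the genes.

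**Figure D3:**
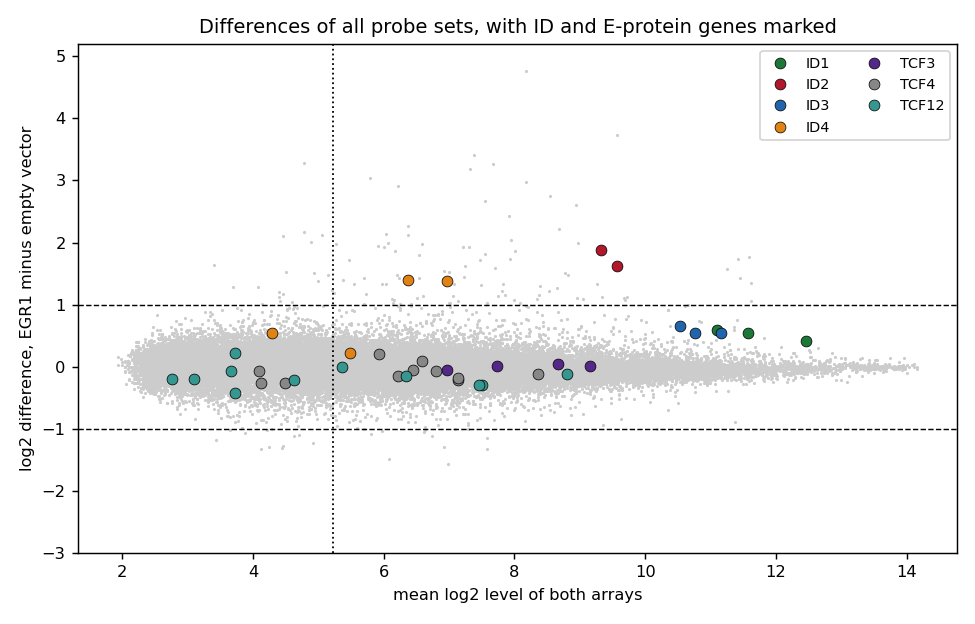
Log2 difference (EGR1 minus empty vector, y axis) against the mean log2 level of both arrays (x axis) for all non-control probe sets (grey), with the 38 ID and E-protein probe sets coloured by gene; dashed lines mark 2-fold and the dotted line the floor. The 3 ID1 and 3 ID3 probe sets sit above the narrow band of bright probe sets at 0.41 to 0.65, and both ID2 probe sets at 1.62 and 1.88.

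The E-protein genes, by contrast, read alike in both arrays. TCF3, which encodes the splice forms E12 and E47, had all 4 probe sets past the floor and differences between -0.05 and 0.05. Its brightest probe set, 11755059_s_at, read 9.15 with the empty vector and 9.16 with EGR1. The remaining TCF3 probe sets read 8.64 and 8.69, 7.73 and 7.74, and 6.99 and 6.94. Their spread (SD 0.04) was the smallest of the 7 genes, and their mean difference was 0.004.

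TCF4, an E protein needed for plasmacytoid dendritic cells and neural development, had 11 probe sets, of which 9 read lower and 2 higher. The brightest, 11724239_at, read 8.41 with the empty vector and 8.29 with EGR1, a difference of -0.12. The 8 past the floor ran from -0.21 to 0.21, on both sides of 0, with an SD of 0.14, close to the pooled SD. TCF12 (HEB), the E protein best known from T-cell and muscle development, also had 11 probe sets, of which 9 read lower, 1 higher and 1 the same. The brightest, 11720581_s_at, read 8.86 and 8.75, a difference of -0.11. The next, 11720580_a_at, read 7.65 and 7.35, a difference of -0.29.

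The count of lower TCF12 probe sets may overstate the number of separate readings. Probe sets 11720580_a_at and 11726957_a_at had the same difference to 5 decimals (-0.29418), as did the dim 11745861_a_at and 11745862_x_at (-0.19747). Equal differences also occurred in different genes, such as NEUROG1 and OLIG1 (-0.12682 in both). Whether each TCF12 pair is a single reading was therefore not established. Probe set 11745727_a_at had exactly 5.36438 in both arrays, a state shared by 5.29% of all probe sets on the array. Of the 5 TCF12 probe sets past the floor, 4 were lower, by at most 0.29, and none was higher. Under lowess correction or quantile normalization the differences of the brightest TCF4 and TCF12 probe sets shrank to between -0.07 and -0.06, and that of TCF3 was 0.06 or 0.04. With sign, the lowest ID difference (ID1) and the highest E-protein difference (TCF3, 0.004) were 0.41 apart on the log2 scale. The ID genes and the E-protein genes therefore did not overlap by their brightest probe sets, although the dim ID4 probe set at 0.22 lay among the highest TCF4 and TCF12 probe sets, at 0.21 and 0.22.

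The transfected gene did not read alike across its probe sets. Of 6 EGR1 probe sets, 11717861_a_at was 13.3-fold and 11751643_x_at 6.76-fold higher, and 4 were lower by up to 0.39 on the log2 scale, so the label of the EGR1 array rests on 2 of 6. The brightest, 11717860_a_at, was among the lower ones, at -0.39. Which EGR1 probe sets lie within the plasmid's insert was not established, and one outside it checks nothing. Of the listed carcinoma markers, VIM (13.73 and 13.66), KRT18 (10.70 and 12.47) and KRT8 (7.97 and 9.97) were clearly above the floor and KRT19 (5.36 and 5.61) barely so, whereas the epithelial adhesion genes EPCAM and CDH1 were under it in both arrays. The keratin differences accompany those of the ID genes, and their part in them was not tested. In the lists for leukocytes, endothelial cells, fibroblasts, muscle cells and neuroendocrine cells, 3 of 6, 4 of 7, 1 of 7, 3 of 5 and 3 of 5 measured genes were past the floor, and none of these differed by 1.5-fold. The defining leukocyte gene PTPRC read 2.95 and 2.80 and the endothelial gene CDH5 4.63 and 4.66, both under the floor. Past it were the leukocyte genes CD79A (5.92 and 5.90), CD3E (5.18 and 5.49) and CSF1R (5.25 and 5.48). The endothelial genes VWF (6.21 in both arrays), ESAM, PECAM1 and KDR were past it too. The brightest markers in these lists were the muscle gene TNNT1 (9.37 and 9.65) and the neuroendocrine gene CHGB (8.15 and 8.63), and their part in the ID differences was not tested. In bulk RNA, fewer cells expressing a gene and less RNA per cell cannot be told apart.

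Class II partners, the tissue-restricted helix-loop-helix factors that pair with E proteins, lay near 0 in difference. Of 36 listed genes 34 were measured and 18 were past the floor; 13 lay above 0, 17 below and 4 at 0, with a median of -0.01 against 0 over all genes. None reached 1.5-fold. The brightest was TWIST1, a factor of mesenchyme, at 8.64 and 8.54. The members past the floor with the largest differences were OLIG2 (-0.27, a factor of oligodendrocyte development), LYL1 (0.24, haematopoiesis), ASCL2 (0.20, intestinal stem cells) and the BMP-responsive ATOH8 (0.18), each read by 1 probe set past the floor at levels from 5.34 to 6.38, close to the floor.

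Genes whose products bind, modify or degrade ID and E proteins were also near 0. All 18 were measured and 15 were past the floor; 6 lay above 0, 11 below and 1 at 0, with a median of -0.02, and none reached 1.5-fold by the brightest probe set. Other probe sets past the floor did in USP1 (-0.78) and in the pocket protein gene RBL2 (-0.59, against -0.09 in its brightest). CDK2, which phosphorylates ID proteins, read 8.93 and 8.73 (difference -0.20), and its 3 probe sets past the floor ran from -0.20 to 0.04. USP1, the deubiquitinase that stabilises ID proteins, read 10.57 and 10.38 (-0.19) by its brightest. CBFA2T2, a corepressor of the ETO family, differed by 0.17 and RBL1 by -0.14. By the brightest probe set no member of this list was as far from 0 as ID1.

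In the BMP pathway, which acts upstream of the ID genes, ligands and receptors showed no 1.5-fold difference. Of 12 ligand genes 9 lay above 0 (background 47.6%) and 2 below, with a median of 0.08, but only 6 were past the floor. The largest past it were GDF6 (0.32), BMP8B (0.25), BMP10 (0.25) and BMP8A (0.17), all at levels between 5.15 and 6.25. Genes past the floor leaned upward at such levels. The quartiles of the difference were -0.08 and 0.17 in the lowest and next lowest deciles by level, against -0.10 and 0.02 in the highest. BMP6, the brightest ligand, read 8.74 and 8.79. Of 7 listed receptor genes 6 were measured, and the type I receptor gene BMPR1A had no value. Of the 6, 2 lay above 0 and 4 below, with a median of -0.10. The type I receptor BMPR1B read 6.33 and 5.90 (-0.43), ACVR2A 6.38 and 6.20 (-0.19), ACVR2B 7.42 and 7.24 (-0.18) and ACVRL1 differed by 0.07. The other ACVR2B probe set past the floor differed by 0.11, and the other BMPR1B probe set, under the floor, differed by 0.

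The SMAD transducers and the pathway's inhibitors went both ways. The receptor-activated SMAD1 read 7.23 and 7.52 (0.29), SMAD5 9.66 and 9.47 (-0.20) and SMAD9 the same value, 5.43, in both arrays. The 5 SMAD5 probe sets past the floor ran from -0.23 to 0.15. The shared partner SMAD4 read 8.17 and 8.53 (0.37), but its 6 probe sets past the floor ran from -0.29 to 0.37. The median of these 4 was 0.14, and it was -0.039 with each gene's probe sets averaged. Of 14 antagonists and feedback inhibitors measured 6 lay above 0 and 8 below (median -0.03), and among the 11 past the floor 6 lay above and 5 below (median 0.07). The inhibitory SMADs, themselves BMP and TGF-beta targets, were the highest: SMAD7 read 5.85 and 6.43 (0.58, or 1.49-fold) and SMAD6 5.34 and 5.72 (0.38, with 0.50 in its other probe set past the floor). The secreted antagonist FST read 6.82 and 7.16 (0.34, with 0.90 in its other probe set past the floor), and the ubiquitin ligase SMURF2 10.57 and 10.20 (-0.37). None reached 1.5-fold by the brightest probe set.

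Genes known as E-protein targets, through which a change in the balance of ID and E proteins could be read, held 2 genes past 1.5-fold, of 12 past the floor (background 0.941%). All 18 were measured, and 13 lay above 0 (background 47.6%), 4 below and 1 at 0, with a median of 0.11 against 0 over all genes. Among the 12 past the floor 9 lay above 0 and 2 below, with a median of 0.17. The list was not split into genes that E proteins raise and genes that they lower. These counts therefore give no direction of E-protein activity. CDKN1C, which encodes the cell-cycle inhibitor p57, read 6.21 with the empty vector and 8.89 with EGR1, and its 3 probe sets past the floor ran from 2.67 to 3.41. SOCS3, a feedback inhibitor of cytokine signalling, read 6.75 and 7.38 (0.63). FOXO1 differed by 0.45 and the repressor GFI1 by -0.26, although GFI1 probe sets ran from -0.26 to 0.33. CDKN1A (p21), the target most often used to read E-protein activity, read 9.91 and 10.11 (0.20), CDKN2A (p16) differed by 0.02 and CDKN2B (p15) by 0.23. Of the lymphoid targets, RAG1, RAG2, EBF1, VPREB1 and IL7R were under the floor, and PAX5 (8.96 and 9.12), PTCRA (6.99 and 6.92) and IGLL1 (5.76 and 5.85) were past it. The list was written with the CDKN1C value known.

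**Figure D4:**
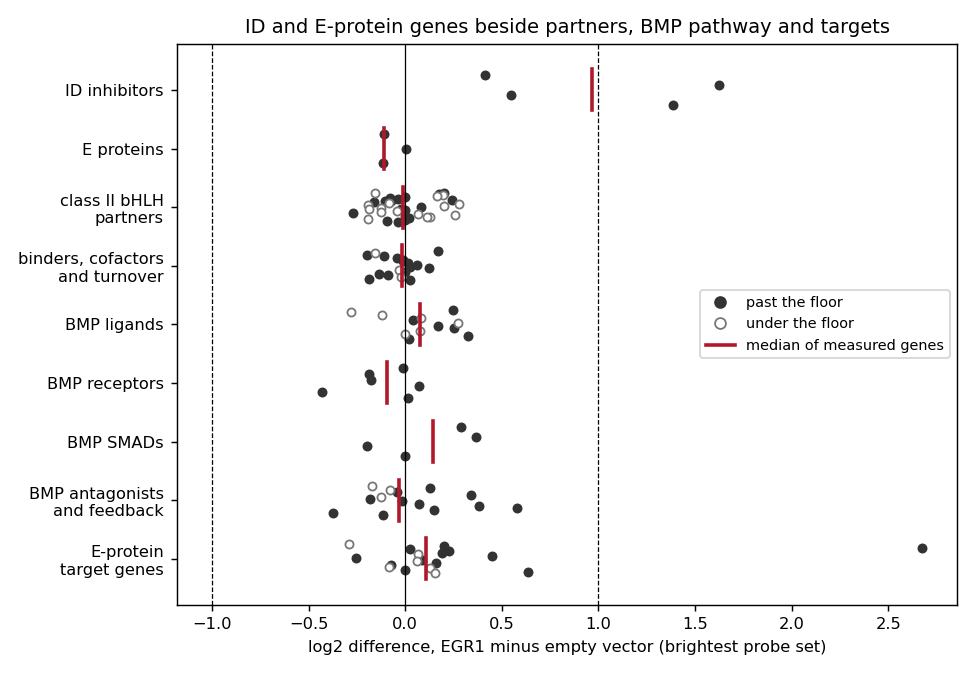
Log2 difference (x axis) of each gene's brightest probe set for the ID and E-protein genes and 7 related lists; filled points are past the floor, open points under it, and red bars are medians of all measured genes. The ID genes lie from 0.41 to 1.62 (median 0.97), while the medians of the other lists lie between -0.11 and 0.14 and CDKN1C, at 2.67, is the one gene outside the ID family past 2-fold (dashed lines).

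The genes nearest above ID2 in difference over the 2 arrays were the solute carrier SLC22A4 (1.80), the keratin KRT18 (1.76) and the transglutaminase TGM2 (1.72). Nearest below it were the early response gene IER3 (1.58), the scaffold gene TAMALIN (1.54) and the orphan nuclear receptor NR4A1 (2.83-fold higher). Around ID4 lay RASD1 (1.42), the cyclic AMP sensor RAPGEF3 (1.42) and the lysyl oxidase family gene LOXL4 (1.40), then the protease inhibitor TIMP1 (1.35), the helix-loop-helix repressor HES1 (1.33) and FBXO2 (1.33). Nearness is measured on a single difference of 2 arrays. For TGM2, TAMALIN, RAPGEF3, TIMP1, HES1 and FBXO2 the least changed probe set past the floor differed by only -0.05 to 0.40.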

How the data were processed

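RNA from H1299 cells, 1 sample with empty pcDNA3.1 and 1 with an EGR1 plasmid, was labelled from 2 µg and hybridised to Affymetrix arrays, per the labels' protocols. The authors deposited log2 levels per probe set, made with RMA, per the submitters' processing notes; software and settings are not stated there. RMA normalizes between arrays and gives no detection call or error, so a shift shared by most genes would not show, and low values cannot be called absent. The number of arrays limits the precision.

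Probe sets were named from the platform annotation, updated by Entrez ID through a RefSeq gene table (44961 of 44988 probe sets with 1 symbol matched); 102 control probe sets and 1832 with several symbols were left out of gene values. No build is named for the values. Differences were computed with pandas 2.3.3, with no test. The brightest probe set (highest mean level) stood for a gene. Named genes are all members, in each list up to 4 genes past the floor that lay farthest from 0, and the 3 genes on each side of a member past 1.5-fold; EGR1 and the marker genes were checks, and other genes were named after their values were seen. The members and lists were chosen with earlier results of these data known. Alternatives were the probe set per gene, suffixes, floor, threshold, lowess (span 0.3, statsmodels 0.14.6) and quantile normalization. The procedure was tested on simulated data. Motifs were sought in the RefSeq windows (GRCh38.p14) of all 7 members. Some listed genes are not reported here.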

Additional observations from a re-analysis of the deposited data

How the results depend on the processing

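Of 96 values recomputed under an alternative, 85 moved by less than the pooled SD among a gene's probe sets (0.15) or, for counts, stayed within 1.5 times. ID1, ID2, ID3 and ID4 kept their sign under every alternative that gave a value; ID2 had none without _x_at and _s_at probe sets, since both of its probe sets carry these suffixes. ID4 was under 2-fold when its probe sets were averaged (0.89) or their median taken (0.97). TCF12 was -0.29 without _x_at and _s_at probe sets. Without them 2 member probe sets were at 2-fold higher instead of 4, and the ID median was 0.55; it was 0.73 with probe sets averaged per gene. The BMP SMAD median was then -0.039. Over all genes 44 were at 2-fold higher and 1 lower; at 1.5-fold these were 119 and 29, and the lower count was 0 with a floor at the 60th percentile and 0 with probe sets averaged. The medians of BMP antagonists lay on either side of 0 (-0.03 to 0.07) and have no settled direction. No test was possible with 1 array per group, and no replicate could be left out. No paired analysis was possible because each group holds 1 sample. The causes of these moves were not tested.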

Other observations

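Other helix-loop-helix genes were listed after the values of the ID genes were seen. They held some repressors that read higher in the EGR1 array, and related genes that differed little. Of 41 listed genes, all measured and 38 past the floor, 25 lay above 0, 14 below and 2 at 0, with a median of 0.07; over all genes 47.6% lay above 0. HEY1, HES1 and HES4, repressors of the hairy and enhancer-of-split type, were past 2-fold (0.348% of genes past the floor were), and BHLHE40, a repressor of the circadian clock and hypoxia response, was past 1.5-fold (0.941%). By the brightest probe set none was lower by 1.5-fold, although a probe set of MXI1 past the floor read -0.67, and one of HEYL read 1.19 against 0.13 in its brightest. HEY1 read 6.93 with the empty vector and 8.97 with EGR1 (2.05, with 1.48 in its other probe set). HES1 read 7.15 and 8.48 (1.33), although its 4 probe sets past the floor ran from -0.03 to 1.33. HES4 read 7.92 and 9.14 (1.22) and BHLHE40 7.09 and 7.78 (0.69), each by 1 probe set. The other listed HES and HEY genes were under 1.5-fold by the brightest probe set. They were HES7 (0.38), HEY2 (0.30), HES2 (0.16), HEYL (0.13), HES6 (-0.04) and HES5 (-0.09). BHLHE41, the relative of BHLHE40, differed by 0.07. Like the ID genes, all of these genes have no replicate check.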
